A study of Mus musculus with 2 samples.

Results

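The 9 genes described here encode enzymes and receptors of retinoid metabolism: *Rdh10*, *Rdh11*, *Rdh14*, *Dhrs3*, *Aldh1a1*, *Aldh1a2*, *Aldh1a3*, *Rara* and *Rxra*. They were taken by name from the 32285 genes in the count matrices, with no cutoff on a measured value. Earlier results of these data were known when they were chosen. All 9 had at least 1 UMI (unique molecular identifier, a tag that marks 1 captured mRNA molecule) in the cells kept from each library. The libraries held CD11b+ and CD11c+ cells sorted from colorectal polyps of C57BL6/J mice, labelled as 26 weeks old. All mice had received azoxymethane (AOM), a carcinogen, followed by 3 cycles of 1% dextran sodium sulfate (DSS), which injures the colon, and polyps were taken 16 weeks after AOM. WT mice were compared with mice lacking *Clec7a* (labelled KO, *Clec7a*-/- below), the gene for Dectin-1, a receptor for fungal and algal glucans, and the mutation had been backcrossed for 9 generations. Cells of 5 WT mice and of 4 *Clec7a*-/- mice were pooled into 1 library per genotype, so differences between genotypes could not be tested and differences between libraries are given with their counting error only.

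Vitamin A reaches cells as retinol, which is oxidized reversibly to retinal and then irreversibly to retinoic acid. RDH10 drives the first oxidation, whereas DHRS3, RDH11 and RDH14 can return retinal to retinol, and the retinal dehydrogenases ALDH1A1, ALDH1A2 and ALDH1A3 perform the step that cannot be undone. Retinoic acid binds nuclear receptors such as RARα (*Rara*), which act on DNA as a pair with an RXR such as RXRα (*Rxra*). In the gut, dendritic cells (DCs) that carry CD103 are known for making retinoic acid, which gives T cells gut-homing receptors and favours regulatory T cells.

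The bound receptor pair recognizes direct repeats of a hexamer. *Rarb*, a receptor, and *Cyp26a1*, a retinoic acid-degrading enzyme, are classical target genes. The sequences below are shown because they contrast the starts of these genes with that of *Aldh1a2*, which encodes a retinal dehydrogenase known from gut DCs. Each is the RefSeq window (GRCm38.p6) from 250 bases before to 50 bases after a transcription start, 5′ to 3′ on the strand of the gene. The windows lie at chr9:71215539-71215838 on the plus strand (*Aldh1a2*), chr14:16575427-16575726 on the minus strand (*Rarb*) and chr19:37697558-37697857 on the plus strand (*Cyp26a1*). Capitals mark a direct repeat with a gap of 5 bases, in which each hexamer is AGGTCA, or AGTTCA, or GGGTCA, or GGTTCA on either strand.
Aldh1a2: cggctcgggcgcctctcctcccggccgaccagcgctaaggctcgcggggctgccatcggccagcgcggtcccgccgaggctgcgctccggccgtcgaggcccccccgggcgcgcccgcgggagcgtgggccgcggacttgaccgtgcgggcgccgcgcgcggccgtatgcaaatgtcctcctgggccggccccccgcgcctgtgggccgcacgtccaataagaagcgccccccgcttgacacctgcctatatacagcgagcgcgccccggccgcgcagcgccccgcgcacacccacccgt
Rarb: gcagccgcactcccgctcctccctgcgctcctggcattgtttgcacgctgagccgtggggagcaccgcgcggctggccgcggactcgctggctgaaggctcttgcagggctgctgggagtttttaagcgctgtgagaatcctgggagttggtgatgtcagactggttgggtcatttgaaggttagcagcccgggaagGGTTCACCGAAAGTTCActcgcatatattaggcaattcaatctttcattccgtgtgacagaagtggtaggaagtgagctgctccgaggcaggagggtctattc
Cyp26a1: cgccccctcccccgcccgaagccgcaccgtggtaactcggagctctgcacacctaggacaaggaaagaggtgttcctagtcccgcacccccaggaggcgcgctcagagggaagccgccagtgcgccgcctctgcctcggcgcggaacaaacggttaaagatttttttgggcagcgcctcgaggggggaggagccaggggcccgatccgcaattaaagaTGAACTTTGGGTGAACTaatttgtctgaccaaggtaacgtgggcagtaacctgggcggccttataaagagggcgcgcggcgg
The repeat began 53 bases before a start of *Rarb* that lies inside the gene (chr14:16430839-16819156, minus strand). In *Cyp26a1* it began 32 bases before the start and was read on the opposite strand. The letters of such a repeat occurred in 32 of 32851 mouse windows (0.0974%), those of a repeat with a gap of 1 base in 0.222% and those with a gap of 2 bases in 0.268%. None of the 15 windows of the 7 genes with an entry (all but *Rdh10* and *Aldh1a3*) held any of the 3 repeats, which says only that these letters were absent from these windows. In the cells kept, *Rarb* had 0 WT and 2 *Clec7a*-/- UMIs, and *Cyp26a1* had 6 and 2.

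The filter took barcodes with 200 to 4000 genes and no more than 5% of UMIs from mitochondrial genes, and left 2696 WT and 1999 *Clec7a*-/- cells with 12283285 and 7559096 UMIs. Levels are given as CPM (UMIs per 1000000 UMIs of the cells named), with 95% intervals that cover counting error only, and a count of 0 allowed up to 3 UMIs, or 0.244 CPM over all WT cells and 0.397 over all *Clec7a*-/- cells. Cells were clustered without the retinoid genes and named from markers. The DC-like class (359 WT and 564 *Clec7a*-/- cells) carried *Flt3* at 198 and 219 CPM against 1.01 and 1.59 in the macrophage-like class (494 and 279 cells), which carried *C1qa* at 707 and 730. The neutrophil-like class (494 and 84 cells) carried *Csf3r* at 1648 and 2085, and the T-cell-like class (67 and 121 cells), a type that the sort did not select, carried *Cd3e* at 257 and 392. The libraries shared 17 barcode sequences, 6 of them among cells kept in both. *Clec7a* itself was not analysed here, so the genotype labels were not checked from the targeted gene.

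*Aldh1a2* (chr9:71215789-71296243 on the plus strand, GRCm38 with GENCODE M21, as for the positions below) encodes RALDH2, the retinal dehydrogenase known from gut DCs, and in these polyps most of its UMIs lay in DC-like cells. Its level there was 51.8 CPM in the WT library (41.9 to 63.3, 95 UMIs) and 50.0 in the *Clec7a*-/- library (42.1 to 59.0, 141 UMIs). The macrophage-like class had 1.77 (0.711 to 3.64, 7 UMIs) and 2.12 (0.577 to 5.42, 4 UMIs), and the neutrophil-like class had 0 UMIs in WT and 1 in *Clec7a*-/-. The monocyte-like class had 5 and 1 UMIs, an unnamed cluster led by *Ccl24* and *Arg1* had 16 and 2, and the T-cell-like class had none in either library, with limits of 17.1 and 12.6 CPM. The DC-like level was thus 29.3-fold the macrophage-like level in WT (log2 4.87, 3.77 to 6.23) and 23.6-fold in *Clec7a*-/- (log2 4.56, 3.17 to 6.46). Of the genes with at least 100 UMIs in the classes compared, 12.7% were at least 2-fold higher in DC-like than in macrophage-like cells in WT and 16.4% in *Clec7a*-/-. Among the retinoid genes with that many UMIs, 1 of 3 in WT and 1 of 2 in *Clec7a*-/- were, *Aldh1a2* in each case.

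**Figure D1:**
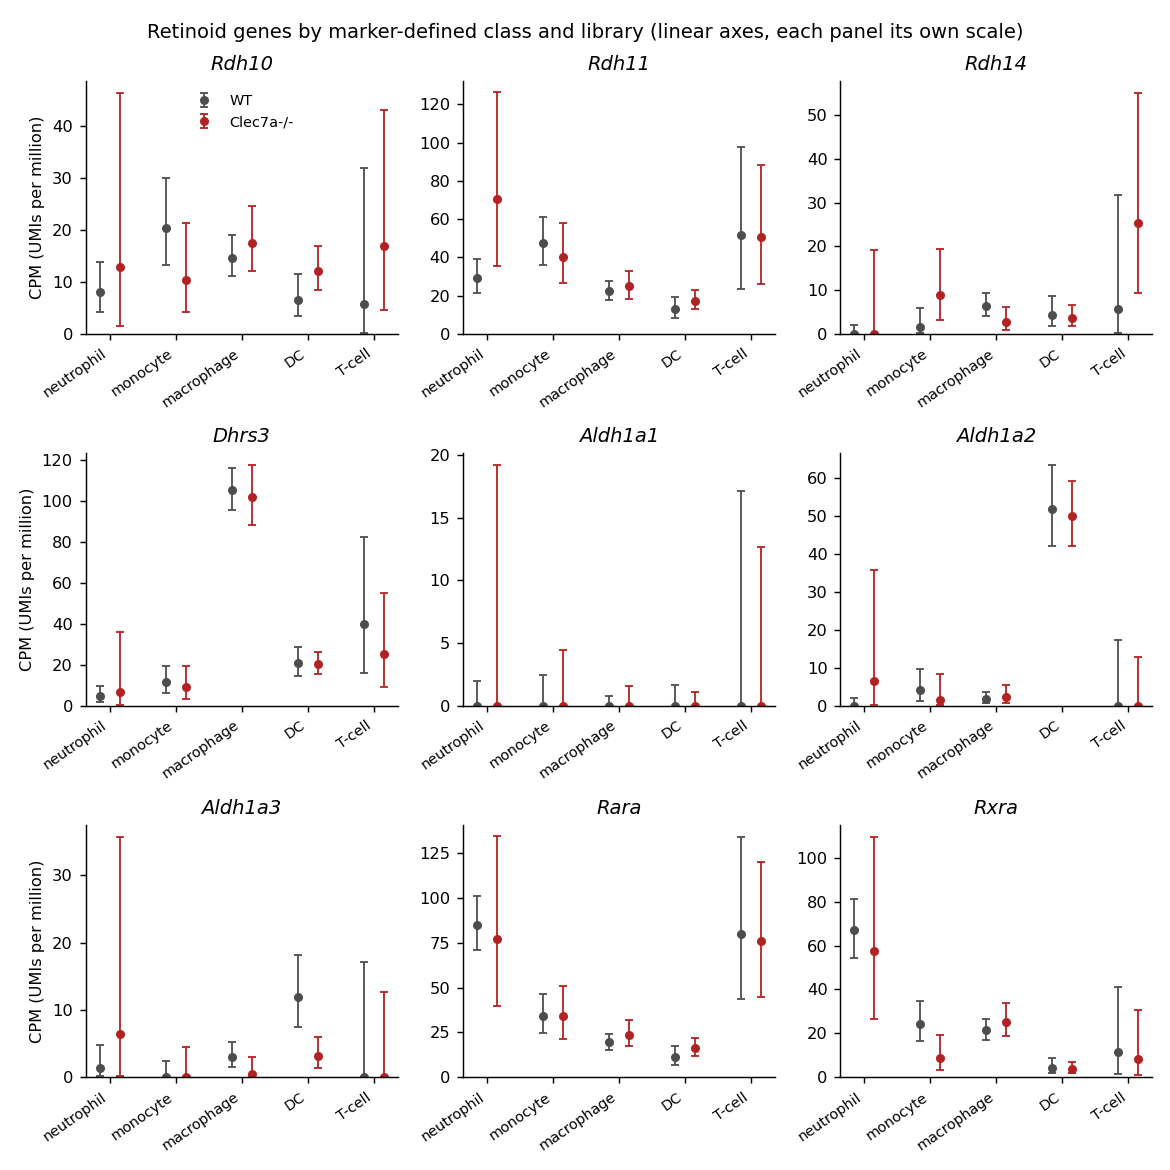
Level of each of the 9 genes in CPM (vertical, linear, a separate scale per panel) in the neutrophil-, monocyte-, macrophage-, DC- and T-cell-like classes of the WT (grey) and Clec7a-/- (red) libraries. Points are levels over all cells of a class, and bars are 95% counting intervals or, at 0 UMIs, the limit of 3 UMIs. *Aldh1a2* stands at 51.8 and 50.0 in DC-like cells, *Dhrs3* at 105 and 102 in macrophage-like cells, and *Rara* at 84.8 and 77.0 in neutrophil-like cells.

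Over all cells *Aldh1a2* was higher in the *Clec7a*-/- library, at 19.7 CPM (16.7 to 23.1, 149 UMIs) against 10.3 in WT (8.55 to 12.2, 126 UMIs), a ratio of 1.92 (log2 0.94, 0.59 to 1.30). Within DC-like cells the ratio was 0.965 (log2 -0.051, -0.44 to 0.34), and over all other cells it was 0.569 (31 and 8 UMIs, log2 -0.81, -2.15 to 0.34). DC-like cells were 13.3% of WT and 28.2% of *Clec7a*-/- cells, and held 14.9% and 37.3% of all UMIs. They held 75.4% of the WT *Aldh1a2* UMIs (95 of 126, 66.9 to 82.6%) and 94.6% of those in the *Clec7a*-/- library (141 of 149, 89.7 to 97.7%). The *Aldh1a2* level per DC-like UMI, over all DC-like cells, thus differed between libraries by less than the counting error. The library with more DC-like cells had more *Aldh1a2* over all cells, and the part of class size in this was not tested.

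**Figure D2:**
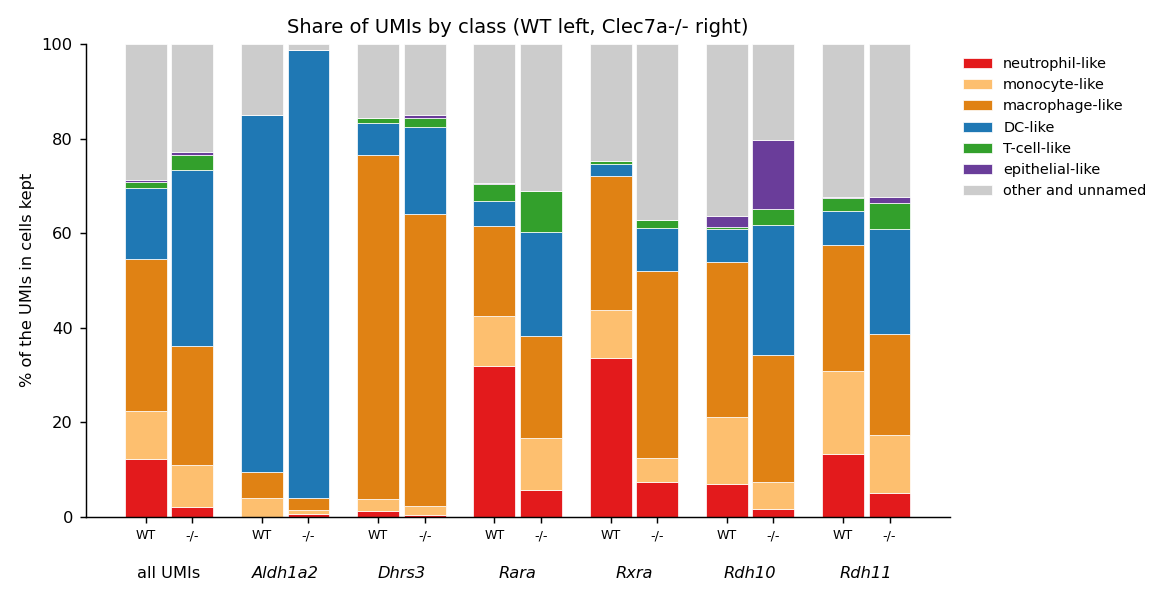
Share of UMIs in the cells kept (vertical, percent) that lay in each marker-defined class, for all genes together and for 6 of the retinoid genes, with the WT bar on the left and the Clec7a-/- bar on the right of each pair. DC-like cells (blue) held 14.9% and 37.3% of all UMIs but 75.4% and 94.6% of the *Aldh1a2* UMIs, and macrophage-like cells (dark orange) held 72.9% and 61.9% of the *Dhrs3* UMIs.

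The share of cells with an *Aldh1a2* UMI depended on depth, and it limits the cells in which the transcript was detected, not those that express it. Without thinning, 45 of 359 WT DC-like cells (12.5%, 9.29 to 16.4%) and 78 of 564 *Clec7a*-/- DC-like cells (13.8%, 11.1 to 17.0%) had an *Aldh1a2* UMI, at median depths of 4229 and 4099 UMIs per cell. With each cell thinned to 1000 UMIs the shares were 9 of 333 cells (2.70%, 1.24 to 5.07%) and 25 of 532 (4.70%, 3.06 to 6.86%), with 26 and 32 shallower cells left out. Background was read from neutrophil-like cells, which had 0 of 492 thinned WT cells (up to 0.610%) and 1 of 82 thinned *Clec7a*-/- cells (1.22%, 0.0309 to 6.61%), and from T-cell-like cells, which had 0 of 56 and 0 of 91. The thinned shares of the libraries overlapped in their intervals. Their order turned at 2000 UMIs per cell, with 7.42% in WT and 6.90% in *Clec7a*-/-, and the WT share at 1000 UMIs ranged up to 7.21% under other ways of filtering and clustering, so no order of the libraries is read from it. Thinning was a random draw, made anew for each set of cells, and the part of the draw in these moves was not tested. In most positive DC-like cells there was a single molecule, seen in 25 of 45 WT and 52 of 78 *Clec7a*-/- cells, while 9 and 13 cells had 3 or more, up to 11 and 12.

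The DC-like cells were then reclustered, again without the retinoid genes, into subclusters that are called by leading genes. The genes used as names were among the 10 leading genes of a subcluster but not always the first. *Fabp5*, a gene of retinoid uptake and binding, came first in the *Ccl5* subcluster below, and *Il22ra2* in the *Clec4n* subcluster. The highest *Aldh1a2* level was in a subcluster led by *Il12b*, the shared chain of IL-12 and IL-23, and *Net1*. *Fscn1* and *Ccr7*, genes of mature migratory DCs, were also high there. *Ccr7* was not particular to it, at 4899 and 4137 CPM against 2942 and 2313 in the *Clec4n* subcluster. *Aldh1a2* in the *Il12b* subcluster was at 144 CPM in WT (106 to 192, 47 UMIs in 53 cells) and 110 in *Clec7a*-/- (86.5 to 137, 77 UMIs in 112 cells). A second *Fscn1*-high subcluster, led by *Ccl5* and *Il2ra*, had 72.1 (44.0 to 111, 20 UMIs) and 66.8 (43.2 to 98.6, 25 UMIs). The cDC1-like subcluster, with *Xcr1* at 431 and 379 and the CD103 gene *Itgae* at 387 and 363 CPM, had 37.2 (23.3 to 56.3) and 28.0 (17.3 to 42.8). *Xcr1* was not confined to it, and stood at 325 and 182 CPM in the *Il12b* subcluster, where *Itgae* was at 24.5 and 61.2. A subcluster led by *Clec4n* and *Csf1r* had *Aldh1a2* at 2.47 (1 UMI) in WT and 21.8 (11.6 to 37.3, 13 UMIs) in *Clec7a*-/-. Its ratio of the libraries was 8.85 (log2 3.15, 0.41 to 8.56), which rested on 1 WT UMI. The order of these 4 was the same in both libraries, but neighbours were not all apart. The intervals of the *Il12b* and *Ccl5* subclusters overlapped in both libraries, those of the *Ccl5* and cDC1-like subclusters in WT, and those of the cDC1-like and *Clec4n* subclusters in *Clec7a*-/-. A small subcluster led by *S100a8* (26 and 19 cells) had 4 and 0 UMIs. The *Il12b* subcluster stood 4.53-fold above the remaining DC-like cells in WT (log2 2.18, 1.57 to 2.79) and 3.62-fold in *Clec7a*-/- (log2 1.86, 1.36 to 2.36), and 18 of its 53 WT cells (34.0%) and 32 of its 112 *Clec7a*-/- cells (28.6%) had an *Aldh1a2* UMI without thinning, against 3 of 52 (5.77%) and 10 of 112 (8.93%) when thinned to 1000 UMIs. Within this subcluster the ratio of the libraries was 0.760 (log2 -0.40, -0.94 to 0.16).

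A DC-like subcluster led by *Pclaf*, *Top2a* and *Spc24*, genes of dividing cells, held 8 WT and 33 *Clec7a*-/- cells. It had 1 and 5 *Aldh1a2* UMIs, the latter 15.5 CPM (5.03 to 36.1), and no *Aldh1a1*, *Aldh1a3*, *Rdh12* or *Il22ra2* UMI in either library. With 322837 UMIs in the *Clec7a*-/- cells a count of 0 allowed up to 9.29 CPM, and in the WT cells up to 41.5, so lower levels were not detectable at this depth. An unnamed cluster outside the DC-like class, led by *Pclaf* and *Birc5*, held 13 WT and 19 *Clec7a*-/- cells. It had no *Aldh1a2* UMI, 4 and 1 *Aldh1a3* UMIs and 18 and 14 *Dhrs3* UMIs.

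*Aldh1a3* (chr7:66390890-66427517, minus strand) encodes RALDH3 and had 43 WT and 26 *Clec7a*-/- UMIs over all cells, 3.50 and 3.44 CPM (log2 ratio -0.025, -0.79 to 0.71). This ratio rested on the filter, since it was -0.91 with up to 10% mitochondrial UMIs and -0.94 with all barcodes. In DC-like cells it was 12.0 CPM in WT (7.52 to 18.2, 22 UMIs) and 3.19 in *Clec7a*-/- (1.46 to 6.06, 9 UMIs), a ratio of 0.266 (log2 -1.91, -3.21 to -0.73). This rested on few cells, since 10 WT and 7 *Clec7a*-/- DC-like cells had any *Aldh1a3* UMI, and 17 of the 22 WT UMIs came from 5 cells of the *Il12b* subcluster, against 2 UMIs from 2 *Clec7a*-/- cells of it. Of the 10 and 7 cells, 1 in each library also had a UMI of the epithelial genes *Epcam* or *Krt8*. In macrophage-like cells 10 of the 12 WT UMIs came from 1 cell. The epithelial-like cells had 2 UMIs in 17 WT cells and 10 in 12 *Clec7a*-/- cells, 9 of the 10 in 1 cell. *Aldh1a1* (chr19:20492715-20643465, plus strand), which encodes RALDH1, had 1 UMI in each library, both in epithelial-like cells, so in the DC-like class it was under the limits of 1.64 CPM in WT and 1.06 in *Clec7a*-/-.

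**Figure D3:**
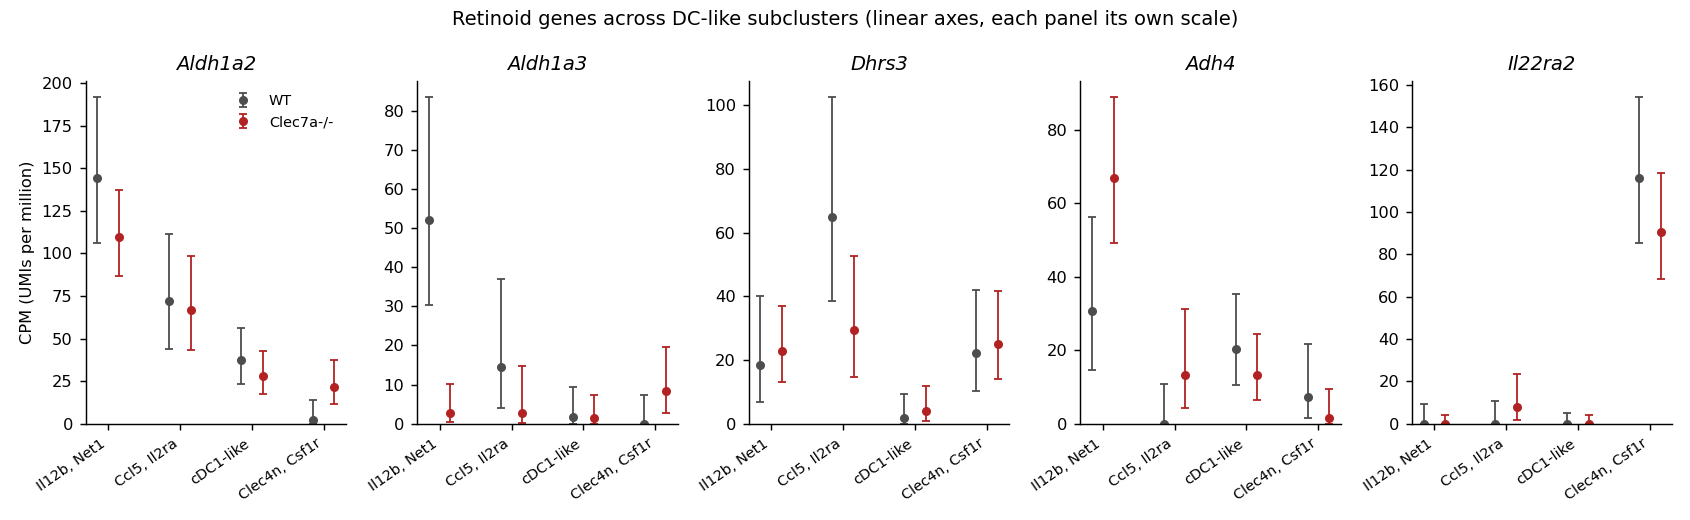
Levels of *Aldh1a2*, *Aldh1a3*, *Dhrs3*, *Adh4* and *Il22ra2* in CPM (vertical, linear, a separate scale per panel) in 4 DC-like subclusters named by leading genes, in the WT (grey) and Clec7a-/- (red) libraries, with 95% counting intervals or, at 0 UMIs, the limit of 3 UMIs. *Aldh1a2* and *Il22ra2* peak at opposite ends: *Aldh1a2* is at 144 and 110 in the *Il12b* subcluster, where *Il22ra2* had 0 UMIs, and *Il22ra2* is at 116 and 90.7 in the *Clec4n* subcluster.

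*Rdh10* (chr1:16105774-16133734, plus strand) encodes the enzyme that feeds retinal to these dehydrogenases, and its UMIs were spread over the myeloid classes. It had 176 UMIs in WT (14.3 CPM, 12.3 to 16.6) and 123 in *Clec7a*-/- (16.3, 13.5 to 19.4), a ratio of 1.14 (log2 0.18, -0.16 to 0.52). Its levels were 14.7 and 17.5 CPM in macrophage-like, 20.3 and 10.3 in monocyte-like, 6.54 and 12.1 in DC-like and 7.95 and 12.8 in neutrophil-like cells. In the *Il12b* subcluster, where *Aldh1a2* was highest, *Rdh10* had 1 UMI in WT and 4 in *Clec7a*-/-. The epithelial-like cells held 4 of the WT UMIs in 17 cells and 18 of the *Clec7a*-/- UMIs in 12 cells, the 18 lying in 5 cells. The *Rdh10* level there was 115 CPM in WT (31.4 to 295) and 360 in *Clec7a*-/- (213 to 568), above each myeloid class listed. Within DC-like cells the ratio of the libraries was 1.84 (12 and 34 UMIs, log2 0.88), and its interval of -0.10 to 1.97 included 0.

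*Dhrs3* (chr4:144892827-144928209, plus strand) encodes the retinal reductase that works opposite to RDH10, and it was mostly a macrophage transcript here. The macrophage-like class had 105 CPM in WT (95.5 to 116, 417 UMIs) and 102 in *Clec7a*-/- (88.2 to 118, 193 UMIs), and held 72.9% and 61.9% of all *Dhrs3* UMIs. DC-like cells had 20.7 (14.7 to 28.4) and 20.2 (15.3 to 26.2), monocyte-like cells 11.4 and 8.87, and neutrophil-like cells 4.64 and 6.42. The DC-like level was 0.197-fold (log2 -2.35, -2.87 to -1.87) and 0.198-fold (log2 -2.34, -2.79 to -1.90) the macrophage-like level, where 19.2% of genes tested in WT and 16% in *Clec7a*-/- were lower by at least 2-fold. Among the retinoid genes tested, *Dhrs3* was lower by that much in both libraries, opposite in direction to *Aldh1a2*. The macrophage-like cells fell into a cluster led by *Trem2*, *Lpl* and *Mfge8*, with 127 and 121 CPM, and a cluster led by *Mmp13*, *Mrc1* and *Pgf*, with 76.2 and 81.1, so that the former stood 1.67-fold higher in WT (log2 0.74, 0.44 to 1.05) and 1.50-fold in *Clec7a*-/- (log2 0.58, 0.15 to 1.02). Within DC-like cells the cDC1-like subcluster had 1 and 3 *Dhrs3* UMIs, and the *Ccl5* subcluster had 64.8 (38.4 to 102) and 29.4 (14.7 to 52.6) CPM. Thinned to 1000 UMIs, 10.3% of 468 WT and 10.7% of 261 *Clec7a*-/- macrophage-like cells had a *Dhrs3* UMI, against 0.813% of 492 and 0 of 82 neutrophil-like cells, and without thinning the shares were 43.3% and 37.3% at median depths of 7931.5 and 6116 UMIs, against 1.42% and 1.19% at 2801 and 1769.

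*Rdh11* (chr12:79174337-79192293, minus strand) and *Rdh14* (chr12:10390772-10395562, plus strand), further retinal reductases, were not confined to 1 class. *Rdh11* had 331 UMIs in WT (26.9 CPM) and 220 in *Clec7a*-/- (29.1), and a ratio of 1.08 (log2 0.11, -0.14 to 0.36). Its levels were 47.2 and 39.9 in monocyte-like, 22.2 and 24.9 in macrophage-like, 13.1 and 17.4 in DC-like and 51.4 and 50.6 in T-cell-like cells. The monocyte-like intervals of *Rdh11* (35.8 to 61.0 and 26.3 to 58.0) lay above the DC-like ones (8.39 to 19.5 and 12.9 to 23.0). In neutrophil-like cells it was 29.2 in WT (44 UMIs) and 70.6 in *Clec7a*-/- (11 UMIs), a ratio of 2.42 (log2 1.28, 0.17 to 2.25). *Rdh14* had 50 and 31 UMIs, 4.07 and 4.10 CPM. Its macrophage-like counts were 25 and 5 UMIs, with a ratio of 0.419 whose interval included 1 (log2 -1.26, -3.00 to 0.16), and no UMI was found in neutrophil-like cells of either library.

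Among the named classes *Rara* (chr11:98927818-98974942, plus strand) was highest in neutrophil- and T-cell-like cells and *Rxra* (chr2:27676440-27762957, plus strand) in neutrophil-like cells. *Rara* was at 84.8 CPM in WT neutrophil-like cells (70.7 to 101, 128 UMIs) and 77.0 in *Clec7a*-/- (39.8 to 134, 12 UMIs), and at 80.0 and 75.8 in T-cell-like cells. Monocyte-like cells had 34.2 and 34.0, macrophage-like cells 19.5 and 23.8, and DC-like cells 11.5 and 16.3. *Rxra* was at 66.9 (54.5 to 81.3, 101 UMIs) and 57.7 (26.4 to 110, 9 UMIs) in neutrophil-like, 21.5 and 25.4 in macrophage-like and 24.4 and 8.87 in monocyte-like cells, and was lowest in DC-like cells, at 4.36 (1.88 to 8.60) and 3.90 (1.95 to 6.98). The class with most of the *Aldh1a2* transcript thus had the least *Rxra* of these 4 classes, although in *Clec7a*-/- its interval overlapped that of monocyte-like cells (3.25 to 19.3). The DC-like level of *Rxra* was 0.203-fold the macrophage-like level in WT (8 and 85 UMIs, log2 -2.30, -3.56 to -1.26) and 0.154-fold in *Clec7a*-/- (11 and 48 UMIs, log2 -2.70, -3.80 to -1.74), but its UMIs were under the minimum of 100 set for the counts of genes.

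In WT, neutrophil-like cells stood above macrophage-like cells 4.36-fold for *Rara* (log2 2.12, 1.70 to 2.55) and 3.11-fold for *Rxra* (log2 1.64, 1.21 to 2.07), 2 of the 4 retinoid genes tested there against 15.4% of all genes tested, and *Dhrs3* was lower by at least 2-fold, as were 58.3% of genes. In *Clec7a*-/-, *Dhrs3* alone of the retinoid genes had 100 UMIs, and it was lower, where 15.2% of genes were higher and 57.5% lower. There the *Rara* ratio was 3.23 (12 and 45 UMIs, log2 1.69, 0.64 to 2.64) and the *Rxra* ratio 2.27 (9 and 48 UMIs, log2 1.18, -0.028 to 2.23). An unnamed cluster of shallow cells (182 WT and 320 *Clec7a*-/- cells, median depths of 1147.5 and 913.5 UMIs), in which *Csf3r* stood at 1020 and 2389, had *Rara* at 50.2 and 83.1 and *Rxra* at 33.5 and 92.4 CPM.

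**Figure D4:**
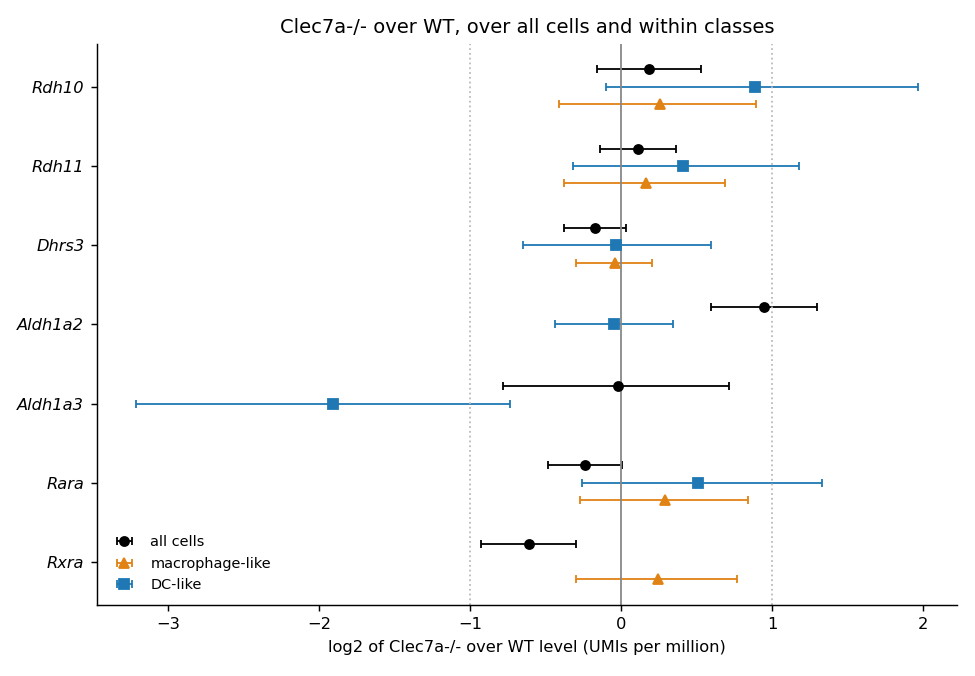
Ratio of the Clec7a-/- over the WT level on a log2 scale (horizontal) for 7 retinoid genes, over all cells (black circles), DC-like cells (blue squares) and macrophage-like cells (orange triangles), with 95% counting intervals. Ratios with under 20 UMIs in both libraries together are not drawn, and dotted lines mark 2-fold. *Aldh1a2* is at 0.94 over all cells and at -0.051 within DC-like cells, and *Rxra* is at -0.61 over all cells and at 0.24 within macrophage-like cells.

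None of the 6 retinoid genes with at least 100 UMIs differed by 2-fold between the libraries over all cells, where 2.42% of the 8470 genes tested were at least 2-fold higher and 1.74% at least 2-fold lower in *Clec7a*-/-. Their median log2 ratio was -0.031, against 0.13 over all genes tested. *Aldh1a2*, at 1.92-fold, lay just inside that limit. *Rxra* was lowest, with 24.4 CPM in WT (21.7 to 27.3, 300 UMIs) and 16.0 in *Clec7a*-/- (13.3 to 19.1, 121 UMIs), a ratio of 0.655 (log2 -0.61, -0.93 to -0.30). *Rara* was at 32.6 and 27.6 (log2 -0.24, -0.49 to 0.0051), and *Dhrs3* was at 46.6 and 41.3 (log2 -0.17, -0.38 to 0.027). Neutrophil-like cells, which held 33.7% of the WT *Rxra* UMIs, were 18.3% of WT and 4.20% of *Clec7a*-/- cells, and within them the *Rxra* ratio was 0.863 (log2 -0.21, -1.38 to 0.77). The size of this class in *Clec7a*-/- depended on the clustering and the filter, since the 494 WT and 84 *Clec7a*-/- cells became 547 and 362 at a resolution higher by 0.4, 496 and 293 after integration by reciprocal PCA, and 688 and 413 with up to 10% mitochondrial UMIs. When each cell was weighted equally, in place of each UMI, the *Rxra* ratio turned to a log2 of 0.082 and that of *Rara* to 0.10.

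Within DC-like cells *Aldh1a2* was the only one of the 9 genes with 100 UMIs, and it was not past 2-fold, where 0.515% of genes were higher and 0.576% lower by that much. Within macrophage-like cells none of the 4 with that many UMIs was, against 0.213% of genes upwards and 0.516% downwards, and the ratios there were 0.969 for *Dhrs3* (log2 -0.045, -0.30 to 0.20), 1.22 for *Rara* (log2 0.29, -0.27 to 0.84), 1.18 for *Rxra* (log2 0.24, -0.30 to 0.77) and 1.12 for *Rdh11* (log2 0.16, -0.38 to 0.69).

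A list of 57 other genes held genes of the retinoid pathway, 8 genes known to answer to retinoic acid and 3 aldehyde dehydrogenases named by the study. Of the 57, 12 had no UMI in the cells kept and 27 had at least 100. Of these 27, 2 were at least 2-fold higher in *Clec7a*-/- and 1 was at least 2-fold lower, with a median log2 ratio of 0.14. Of all 8470 genes with that many UMIs, 2.42% were higher and 1.74% lower by that much. The 2 were *Il22ra2*, which encodes the IL-22 binding protein (58 and 141 UMIs, 3.95-fold, log2 1.98, 1.53 to 2.45), and *Itgae* (320 and 477 UMIs, 2.42-fold, log2 1.28, 1.07 to 1.49), both listed as genes known to answer to retinoic acid. The study had already reported high *Il22ra2* in a DC subset of *Clec7a*-/- but not WT mice from these data. Its place in the count is therefore not independent, and few cells held many of its UMIs, as given below. The 1 was *Rdh12*, a retinal reductase (1036 and 174 UMIs, 0.273-fold, log2 -1.87, -2.11 to -1.64), and its log2 ratio was -0.85, short of 2-fold, when each cell was weighted equally. Within DC-like cells *Itgae* was at 1.03-fold and *Il22ra2* at 0.803-fold (47 and 58 UMIs, log2 -0.32, -0.90 to 0.27).

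The other 24 genes with that many UMIs lay between log2 ratios of -0.99 and 0.88. In uptake and binding they were *Lrp1* (-0.39) and *Fabp5* (-0.11), and in storage and release *Dgat1* (-0.43), *Lpl* (-0.71), *Scarb1* (-0.60) and *Lipe* (0.14). Enzymes between retinol and retinal were *Adh5* (0.39), *Dhrs9* (-0.76), *Dhrs4* (0.39) and *Rdh13* (-0.088). Receptors and cofactors included *Rarg* (0.24), *Rxrb* (-0.0011), *Ppard* (-0.68), *Ncor1* (0.26), *Ncoa1* (0.29) and *Nrip1* (0.54). Genes known to answer to retinoic acid were *Itga4* (0.82), *Ccr9* (0.53), *Hic1* (0.88), *Cd38* (-0.40), *Tgm2* (-0.60) and *Arg1* (-0.99). The receptors and cofactors, the enzymes and the genes known to answer to retinoic acid thus each lay on both sides of 0.

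*Rdh12* was at 421 CPM in WT neutrophil-like cells (389 to 455) and 321 in *Clec7a*-/- (238 to 423), a ratio of 0.763 (log2 -0.39, -0.84 to 0.025). These cells held 635 of its 1036 WT UMIs (61.3%) but 50 of its 174 *Clec7a*-/- UMIs (28.7%). Unnamed and other clusters held 307 (29.6%) and 112 (64.4%). Lower counts lay in other named classes of the WT library, with 32 UMIs in macrophage-like and 23 in DC-like cells against 0 and 6 in *Clec7a*-/-. *S100a8*, a neutrophil gene, was also lower there, at 178 CPM in WT and 59.8 in *Clec7a*-/- macrophage-like cells and at 221 and 43.3 in DC-like cells, and its part in the *Rdh12* counts was not tested. *Dhrs9*, which oxidizes retinol, was at 87.7 CPM in neutrophil-like cells over both libraries. *Rarg*, the gene of a further retinoic acid receptor, was at 84.0 CPM in monocyte-like cells.

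Among enzymes of retinol oxidation, *Adh5* was found in DC-like (66.2 CPM over both libraries), macrophage-like (64.8), T-cell-like (70.3) and monocyte-like (23.1) cells, and *Adh1* had 3 UMIs in WT and 0 in *Clec7a*-/-. *Adh4*, singled out after its values were seen, had all of its 26 WT and 66 *Clec7a*-/- UMIs in DC-like cells. It was highest in the *Il12b* subcluster, at 30.7 CPM in WT (14.7 to 56.4, 10 UMIs) and 66.9 in *Clec7a*-/- (49.1 to 88.9, 47 UMIs), a ratio of 2.18 (log2 1.13, 0.12 to 2.28). *Cyp26b1*, a retinoic acid-degrading enzyme also singled out in this way, had 17 of its 21 WT and all of its 36 *Clec7a*-/- UMIs in DC-like cells, of which 14 and 5 were in the cDC1-like and 1 and 25 in the *Il12b* subcluster. Of the other aldehyde dehydrogenases the study examined, *Aldh4a1* had 155 and 112 UMIs, *Aldh3b1* 34 and 31 and *Aldh6a1* 14 and 10, and their ratios were 1.17, 1.48 and 1.16 with intervals that included 1.

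*Il22ra2* did not follow *Aldh1a2* across the cells. In DC-like cells it lay in the *Clec4n* subcluster, at 116 CPM in WT (85.2 to 154, 47 UMIs in 6 cells) and 90.7 in *Clec7a*-/- (68.1 to 118, 54 UMIs in 11 cells), and it had no UMI in the *Il12b* or the cDC1-like subcluster of either library. The limits in the *Il12b* subcluster were 9.20 and 4.27 CPM. In macrophage-like cells it had 3 UMIs in 2 WT cells (0.758 CPM) and 48 in 3 *Clec7a*-/- cells (25.4 CPM), so that these 3 cells held 48 of the 141 *Clec7a*-/- UMIs. All of them lay in the cluster led by *Mmp13*, where *Aldh1a2* had 4 and 2 UMIs. A further 6 WT and 34 *Clec7a*-/- *Il22ra2* UMIs lay in unnamed and other clusters.

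The genes most like each retinoid gene were found by Pearson correlation over 23 clusters by library, among 8470 genes, as a description in which points of a library share its depth. For *Aldh1a2* they were *Arpin* (r = 0.966), *Strip2* (0.963), *Il12b* (0.963), *Arhgef40* (0.959) and *Mtmr4* (0.952). For *Dhrs3* they were *Mtss1* (0.879), *Ttyh2* (0.879) and *Dnmt3a* (0.874), for *Rara* *Cdkn2d* (0.931), *Batf* (0.914) and *Blcap* (0.904), and for *Rxra* *Plk3* (0.932), *Mafk* (0.929) and *Hk3* (0.929). The likeness was lower for *Rdh11*, with *Agfg2* (0.862), *Helb* (0.848) and *Itgal* (0.819), and for *Rdh10*, with *Scamp3* (0.802), *Tsc22d2* (0.769) and *Alg1* (0.760).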

How the data were processed

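The authors deposited, for each of the 2 libraries, a matrix of UMI counts per gene and barcode, as whole numbers without normalization. The submitters' processing notes name Cell Ranger 2.1.1 and mm10, while the protocol names the SeekOne MM kit, which captures 3′ ends. These counts do not scale with gene length, so levels were compared between cells and not between genes. Libraries were mapped to genotypes by their labels. Cells were filtered as the study did (200 to 4000 genes, at most 5% mitochondrial UMIs), normalized and clustered with Seurat 5.3.0 (R 4.3.3; LogNormalize to 10000, 2000 variable features without retinoid and sex-linked genes, 20 principal components, 15 clusters), and clusters were named from marker lists. DC-like cells were reclustered at resolution 0.5. Scrublet in scanpy 1.11.5 called 0 of the cells kept, so no doublets were removed in the main analysis. UMIs were summed per library and class, and levels were given exact Poisson intervals, ratios exact conditional intervals and shares Clopper-Pearson intervals (scipy 1.17.1), with no test, because there was 1 library per genotype. Calculations were tested on simulated data. Levels are in CPM. Named were the 9 genes, the pathway genes with at least 100 UMIs, *Adh1*, *Il22ra2* and the aldehyde dehydrogenases named by the study, and the 5 (*Aldh1a2*) or 3 (others with 100 UMIs) most correlated genes by log2(CPM + 10) over units of at least 20 cells. The value of 1 pathway gene, counted in the list, is not reported here. Genes, lists and classes were chosen with earlier results of these data known. Promoter windows were from RefSeq (GRCm38.p6), where proteins were not used here. Alternatives covered filters, doublets, clustering, integration, scaling with edgeR 4.0.16, weights and thinning.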

Additional observations from a re-analysis of the deposited data

Results flagged for a closer look

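The 9 genes were looked through over the main classes and the 15 clusters for counting intervals that excluded 0 in opposite directions. How many of so many intervals would exclude 0 by counting error alone was not tested. *Rxra* was the gene picked out. It was higher in the *Clec7a*-/- library in the unnamed cluster of shallow cells (log2 1.46, 0.31 to 2.80, 8 and 30 UMIs) and lower in monocyte-like cells (log2 -1.46, -3.02 to -0.17, 30 and 6 UMIs), and the difference between these was not tested. The shallow cells had median depths of 1147.5 UMIs in WT and 913.5 in *Clec7a*-/-, and *Csf3r*, a neutrophil gene, stood at 1020 and 2389 CPM there. Its part in the result was not tested.

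The barcodes left out by the filter numbered 771 WT and 1081 *Clec7a*-/-, of which 729 and 1057 had over 5% mitochondrial UMIs. They entered the comparisons above only where another filter or the use of all barcodes was named. In them *Aldh1a2* was at 18.7 CPM in WT (67 UMIs) and 30.1 in *Clec7a*-/- (128 UMIs), a log2 ratio of 0.69 (0.25 to 1.14), in the same direction as over the cells kept. In those with over 5% mitochondrial UMIs alone *Fscn1*, a gene of mature DCs, was at 195 and 412 CPM, and its part was not tested. *Rara* was at 17.3 and 25.2 (62 and 107 UMIs), a log2 ratio of 0.54 (0.08 to 1.02), against -0.24 (-0.49 to 0.0051) in the cells kept. *Rdh10* was at 53.8 and 36.9 CPM (193 and 157 UMIs), a log2 ratio of -0.54 (-0.86 to -0.23), against 0.18 (-0.16 to 0.52) in the cells kept. The signs were opposite for both genes, but their intervals in the cells kept included 0. Lower in *Clec7a*-/- among the barcodes left out were also *Rxra* (70 and 35 UMIs, log2 -1.24, -1.87 to -0.64), against -0.61 in the cells kept. So were *Aldh1a3* (156 and 51 UMIs, log2 -1.86, -2.34 to -1.39) and *Dhrs3* (224 and 205 UMIs, log2 -0.37, -0.65 to -0.093). Of the 156 WT *Aldh1a3* UMIs, 90 lay in 1 barcode, which the counting interval does not take into account.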

How the results depend on the processing

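Of 209 values recomputed under an alternative, 194 stayed within the counting interval of the main value, or at the same count. The 209 include the removal of barcodes called by Scrublet. That setting called 0 of the cells kept, so its values had to stay the same and say nothing about stability. Weighting each cell equally moved the all-cells log2 ratio of *Rdh11* to 0.38 and of *Rara* to 0.10, and reversed that of *Rxra* to 0.082; the causes were not tested. The share of DC-like cells with an *Aldh1a2* UMI moved with thinning by construction, to 7.42% in WT and 6.90% in *Clec7a*-/- at 2000 UMIs and to 12.5% and 13.8% without thinning. At 1000 UMIs the WT share also moved, from 2.70% to 5.69% without the 5% of barcodes with the highest Scrublet scores (an alternative chosen after seeing the data, as was the use of all barcodes), to 7.21% at a resolution higher by 0.4 and to 6.33% after integration by reciprocal PCA, settings in which fewer cells were named DC-like (216, 227 and 226 of WT against 359). The *Clec7a*-/- share was 4.44%, 6.43% and 6.15% under these settings, against 4.70%, so that the order of the libraries turned in each. The random draw of the thinning also differed between these sets of cells, and its part in the moves was not tested. The all-cells ratio of *Aldh1a2* ranged over log2 0.77 to 0.99, that within DC-like cells over -0.22 to 0.24, and the DC-like over macrophage-like ratio over 4.67 to 5.86 in WT and 4.32 to 5.55 in *Clec7a*-/-. None of the retinoid genes with the minimum number of UMIs passed 2-fold over all cells under any alternative run (*Aldh1a1*, with a few UMIs, reached log2 2.03), including minimums of 20 UMIs and of none, where 5.51% and 14.7% of genes were higher and 2.53% and 12.2% lower. TMM scaling lowered every log2 ratio by 0.17, from a median over all genes of 0.13 to -0.038. The *Aldh1a3* ratio over all cells fell to -0.91 with up to 10% mitochondrial UMIs and to -0.94 with all barcodes, and within DC-like cells ranged over -3.09 to -1.52. Values rest on 1 library per genotype and on few UMIs. No paired analysis was possible because there was 1 library per genotype.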

Other observations

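*Aldh1a3* was mostly in barcodes that the filter removed. These held 156 WT and 51 *Clec7a*-/- UMIs, against 43 and 26 in the cells kept. In WT 153 of the 156 (98.1%, 94.5 to 99.6%) lay in the 182 removed barcodes that had a UMI of *Epcam* or *Krt8*, and 90 UMIs in 1 barcode. In *Clec7a*-/- 23 of the 51 did (45.1%, 31.1 to 59.7%), in 150 such barcodes. *Rdh10* had 156 of 193 (80.8%) and 120 of 157 (76.4%) of its removed UMIs in the same barcodes, whereas *Aldh1a2* had 4 of 67 (5.97%) and 6 of 128 (4.69%). Among the removed barcodes with over 5% mitochondrial UMIs alone, *Aldh1a2* reached 22 UMIs in 1 WT and 18 in 1 *Clec7a*-/- barcode, above the 11 and 12 of the cells kept.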
